A study of Mus musculus with 12 samples.

Results

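The early LPS response of BV2 cells was compared with and without telmisartan, gene by gene, to ask whether the drug damped or enlarged it. BV2 is an immortalised mouse microglial line, which the labels describe as wild type. The measure was the interaction, (Telmisartan+LPS minus Telmisartan) minus (LPS minus DMSO), on the log2 scale of the arrays, so that 0 stands for the same fold change by LPS in both drug states. It was computed for all 22180 genes of 22180 in the series, each a feature with 1 platform symbol, and for a symbol with several features the one with the highest mean over the 12 arrays. Each of the 4 groups had 3 arrays, and every group carried 1.5% DMSO. The DMSO group had vehicle for 3 h, the LPS group had vehicle for 2 h and then LPS for 1 h, the Telmisartan group had the drug alone for 3 h, and the Telmisartan+LPS group had the drug for 2 h and then LPS for 1 h. A sentence of the protocol also lists LPS among the agents given for 3 h, and the timing above is the one it gives for the LPS groups by name. Doses of both agents are not given in the sources used here. All arrays come from 1 cell line, and nothing in the labels ties an array to a separate culture, so that a p-value reflects array-to-array spread, which may be technical.

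LPS, a component of the outer membrane of Gram-negative bacteria, is handed by the co-receptor CD14 to the receptor complex of TLR4 and MD-2. The adaptors MyD88 and TRIF then lead to NF-kB, MAP kinases and interferon regulatory factors, and within the first hour microglia transcribe cytokines, chemokines and the inhibitors that later end the response. Telmisartan blocks the angiotensin II type 1 receptor and is a partial agonist of the nuclear receptor PPAR gamma, whose ligands are known to hold down NF-kB-driven genes in macrophages.

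The cells carried the markers of their label. The 11 measured genes of the microglia and macrophage list, among them Fcer1g, Tyrobp and Trem2, had a mean RMA level between 9.46 and 9.55 in every array. The lists for astrocytes, neurons, oligodendrocytes, endothelial cells and fibroblasts, and lymphocytes had mean levels between 3.36 and 4.46, around the array medians of 4.08 to 4.13. The list of 13 measured genes of resting microglia in brain tissue had a mean level between 4.62 and 4.78 in every array. Of these genes 5 had a highest group mean of at least 5, among them Csf1r and Cx3cr1, which are on both microglia lists. Tmem119 lay between 4.58 and 5.16, P2ry13 between 3.12 and 3.98 and Siglech between 3.26 and 3.57. Replicates 1 and 3 of Telmisartan+LPS stood apart: replicate 1 scored 17.3 on the third principal component, where the other 11 arrays lay between -8.38 and 7.28, and replicate 3 scored 20.2 on the second, where the others lay between -9.78 and 6.83. The median SD of a gene was 0.110 in Telmisartan+LPS and between 0.0907 and 0.0954 in the other groups. For some results below, values without 1 of these arrays are also given, but not for every gene.

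No gene was called for the interaction: limma with Benjamini-Hochberg adjustment over all genes called 0 of 22180 (0.0%), in either direction, and the smallest adjusted p was 0.187. At an unadjusted p under 0.05 there were 1725 genes (7.78%), 659 with a negative interaction (2.97%) and 1066 with a positive one (4.81%). Over all genes the median interaction was 0.02, with 10133 genes below 0 (45.7%) and 11877 above (53.5%); with each array centred on its median, 11722 lay below and 10264 above. The 95% interval of a gene's interaction had a median half-width of 0.28, and for 18906 genes the whole interval lay within 1.5-fold in either direction. An interaction of at least 1 in size was estimated for 16 genes, of which 15 were positive, 11 of them small nucleolar RNA genes, and 1, Il1b, was negative.

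To separate damped from enlarged effects, the LPS effect was averaged over both drug states, which with equal numbers of arrays gives a measure whose error is uncorrelated with that of the interaction where the arrays vary alike. On average 119 genes rose with LPS (0.537% of those tested) and 29 fell (0.131%), at an adjusted p under 0.05 in limma; with each array centred on its median, 99 rose and 131 fell. In the separate drug states 84 genes rose (0.379%) and 11 fell (0.0496%) without the drug, and 55 rose (0.248%) and 3 fell (0.0135%) with it, while the drug called 0 genes (0.0%) with or without LPS. These counts share a threshold and are no test of a difference. An effect is called damped below where the interaction has the opposite sign to this average and enlarged where it has the same sign. These words describe estimates, since no interaction passed the test.

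Among the 119 LPS-risen genes, 91 had a damped estimate, 27 an enlarged one, and Ccl2 was at 0. That is 76.5% with a negative interaction, where 45.7% of all genes had one. An unadjusted p under 0.05 was reached by 29 damped genes (24.4%, against 2.97% of all genes) and by 3 enlarged ones (2.52%, against 4.81%). The median interaction was -0.16, and it lay between -0.18 and -0.12 when each array was left out in turn. The median LPS effect of these genes was 0.59 without the drug and 0.46 with it, and fewer responding cells cannot be told apart from less RNA per cell. The drug alone had a median difference of -0.04 from DMSO in them, and after LPS of -0.20, so the median gap between drug and vehicle was wider in the cells given LPS. In 55 of the 119 (46.2%), all Telmisartan+LPS arrays lay below all LPS arrays, compared with 6.23% of all genes. The negative sign of 76 genes held without each array in turn, a count that was not made over all genes. For 88 of the 119 the whole 95% interval lay within 1.5-fold, where 18906 of all 22180 genes had such an interval. Larger changes of the LPS effect were outside the interval for these 88 genes.

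**Figure D1:**
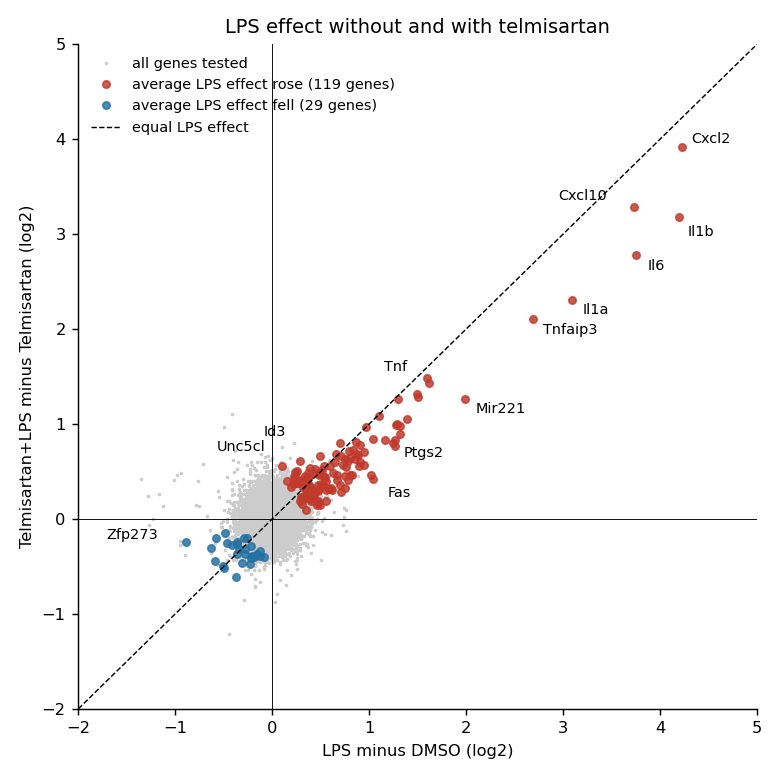
LPS effect without telmisartan (horizontal axis, LPS minus DMSO, log2) against the effect with telmisartan (vertical axis, Telmisartan+LPS minus Telmisartan, log2); grey points are all 22180 genes, red points the 119 genes that rose with LPS on average, blue points the 29 that fell, and the dashed line marks equal effects. Of the red points 91 lie below the line and 27 above it, and Il1b, Il6 and Il1a lie farthest below.

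The genes with the strongest LPS response all lay on the damped side. The 21 LPS-risen genes with an average effect of at least 2-fold, a class set after the values were seen, had negative interactions in 21 of 21 cases, with a median of -0.34 and a range of -1.02 to -0.02. An unadjusted p under 0.05 was reached by 11 of them (52.4%, against 2.97% of all genes on the negative side). The LPS effect with the drug was between 60.4% and 98.5% of that without it on the log2 scale, with a median of 77.1%. The 98 genes with a smaller average response were damped in 70 cases and had a median interaction of -0.12. Telmisartan+LPS replicate 3 was the lowest array of its group in 19 of the 21 genes and replicate 1 the highest in 17. Without replicate 3 the median of the 21 was -0.29 with 19 of 21 negative, and without replicate 1 it was -0.42 with 21 of 21 negative.

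**Figure D2:**
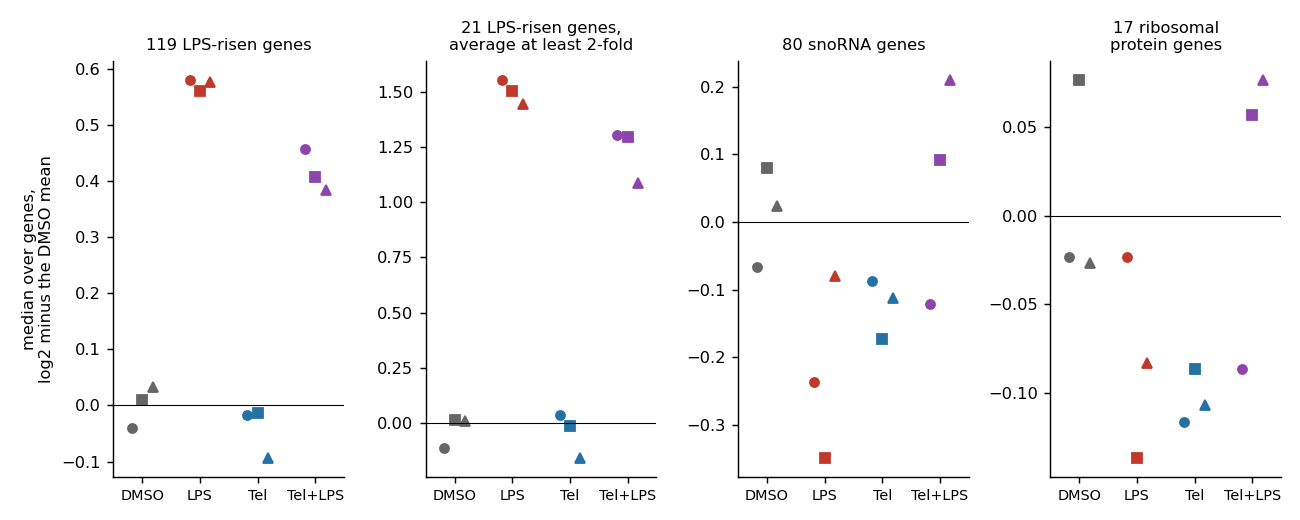
Median over genes of the log2 difference from the DMSO mean in each of the 12 arrays (circle, square and triangle for replicates 1, 2 and 3), for the 119 LPS-risen genes, the 21 of them with an average effect of at least 2-fold, the 80 small nucleolar RNA genes and 17 ribosomal protein genes; each panel has its own scale. In both LPS-risen panels the Telmisartan+LPS arrays lie below the LPS arrays, while in the last 2 panels replicate 1 of Telmisartan+LPS lies below replicates 2 and 3.

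The cytokines Il1b, Il6 and Il1a had the most negative interactions among LPS-risen genes. Il1b, the precursor of the secreted pyrogen interleukin-1 beta, read 5.73, 5.93 and 6.48 in DMSO, 10.36, 10.10 and 10.26 in LPS, 5.80, 6.05 and 6.11 in Telmisartan, and 9.66, 9.28 and 8.54 in Telmisartan+LPS. The LPS arrays all lay above the Telmisartan+LPS arrays, and the groups without LPS overlapped. LPS raised Il1b 18.3-fold without the drug and 9.02-fold with it, an interaction of -1.02 (SE 0.34, 95% interval -1.75 to -0.29, adjusted p = 0.604). Leaving out Telmisartan+LPS replicate 3 gave -0.71, and leaving out replicate 1 of that group gave -1.27.

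Il6, whose product drives fever and the acute phase response, read 4.60, 4.90 and 4.68 in DMSO, 8.45, 8.40 and 8.59 in LPS, 4.39, 4.14 and 4.55 in Telmisartan, and 7.63, 7.41 and 6.36 in Telmisartan+LPS. Both drug groups lay below their counterparts with no overlap, by 0.37 without LPS and by 1.35 with it. LPS raised it 13.5-fold without the drug and 6.84-fold with it, with an interaction of -0.98 (SE 0.34, adjusted p = 0.604) that was -0.59 without Telmisartan+LPS replicate 3. Il1a, which encodes the cell-associated interleukin-1 alpha, read 6.39, 6.63 and 6.38 in DMSO, 9.64, 9.51 and 9.52 in LPS, 6.61, 6.52 and 6.43 in Telmisartan, and 9.32, 8.89 and 8.27 in Telmisartan+LPS. Its interaction was -0.78 (SE 0.26, adjusted p = 0.604), and -0.51 without that same array. Csf2, the granulocyte-macrophage colony-stimulating factor, had an interaction of -0.50 (SE 0.20, adjusted p = 0.618), with LPS arrays at 5.02, 4.35 and 4.66 and Telmisartan+LPS arrays at 4.19, 4.11 and 3.96. It was -0.33 without LPS replicate 1, and a second feature of Csf2 gave 0.15. Both features were dim, with means over the arrays of 3.88 for the feature used and 3.78 for the second.

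Tnf did not share this size of difference. It encodes tumour necrosis factor, the first cytokine of the response, and read 10.64, 11.02 and 10.85 in DMSO, 12.39, 12.50 and 12.41 in LPS, 10.82, 10.82 and 10.64 in Telmisartan, and 12.29, 12.26 and 12.17 in Telmisartan+LPS. The LPS arrays again lay above all Telmisartan+LPS arrays, but by 0.19 on average. The interaction was -0.12 with a 95% interval of -0.40 to 0.17, so a value as low as the estimate for Il1b lay outside it, and the difference between the 2 genes was not tested. Of the 22 measured cytokine genes, 14 had a negative interaction (63.6%, against 45.7% of all genes) and 7 a positive one. An unadjusted p under 0.05 was reached by 5 negative ones (22.7%, against 2.97% of all genes) and 1 positive one (4.55%, against 4.81%). The median was -0.10, but -0.06 without Telmisartan replicate 1 and -0.05 without LPS replicate 2.

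**Figure D3:**
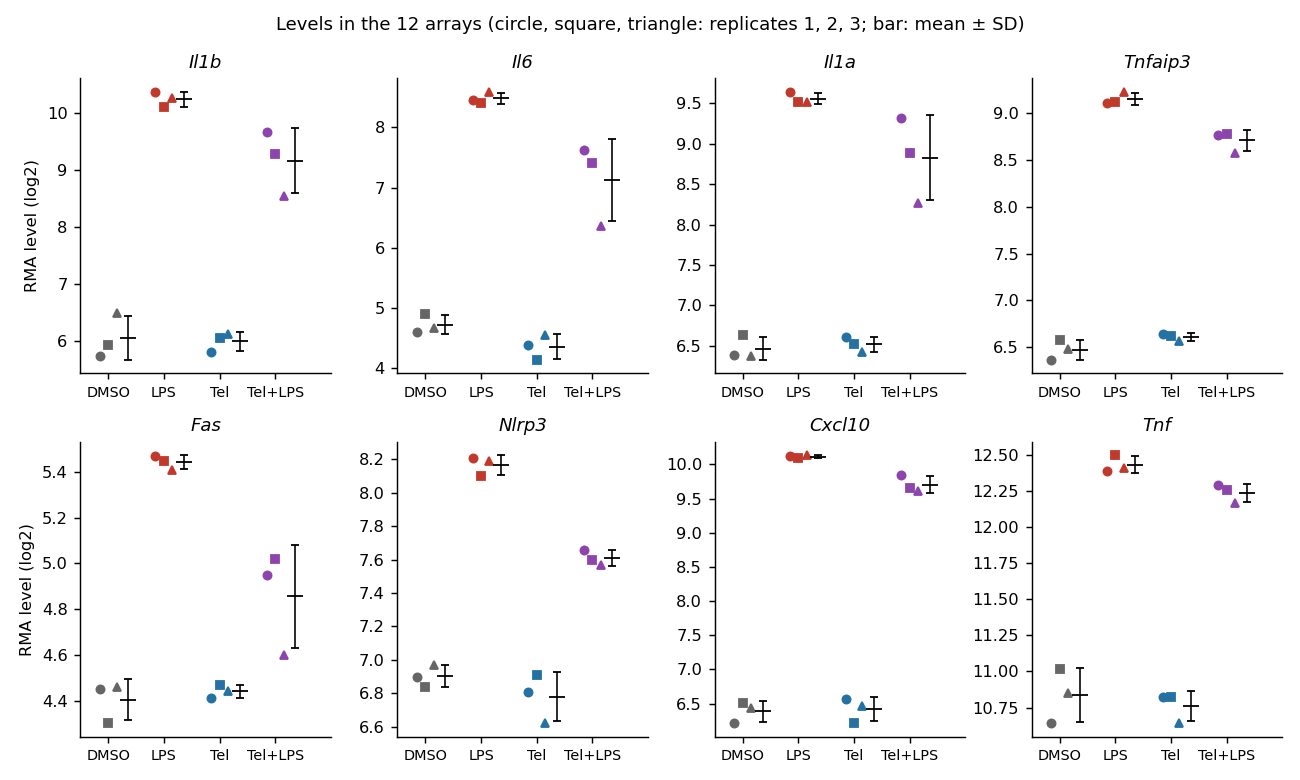
RMA level (log2, vertical axes with different ranges) of 8 genes in the 12 arrays, with circle, square and triangle for replicates 1, 2 and 3 of DMSO, LPS, Telmisartan (Tel) and Telmisartan+LPS (Tel+LPS), and black bars for mean ± SD (n = 3). In all 8 genes the Telmisartan+LPS arrays lie below the LPS arrays, with replicate 3 lowest, by 1.08 on average for Il1b and 0.19 for Tnf.

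Chemokines, which draw leukocytes along a gradient, were below 0 in 14 of 17 cases (82.4%, against 45.7% of all genes), with a median of -0.11. On that side 2 reached an unadjusted p under 0.05 (11.8%, against 2.97%), and on the other 0. Cxcl10, a ligand of the chemokine receptor CXCR3 on T cells, read 6.21, 6.51 and 6.44 in DMSO, 10.12, 10.09 and 10.13 in LPS, 6.57, 6.22 and 6.47 in Telmisartan, and 9.84, 9.66 and 9.61 in Telmisartan+LPS. The groups with LPS did not overlap, and the interaction was -0.44 (SE 0.14, adjusted p = 0.604). Cxcl11, another CXCR3 ligand that the reference gene table lists as a transcribed pseudogene, was dim and read 4.12, 4.30 and 4.41 in LPS but 3.95, 3.95 and 3.55 in Telmisartan+LPS, against 3.29, 3.56 and 3.79 in DMSO and 3.97, 3.96 and 3.70 in Telmisartan. Its interaction of -0.79 (SE 0.20, adjusted p = 0.604) came from a higher level with the drug alone as well as a lower one after LPS. Cxcl2, a neutrophil attractant and the gene with the largest average LPS effect, rose 18.7-fold without the drug and 15.1-fold with it. Its DMSO arrays were spread from 5.08 to 5.98 and its Telmisartan arrays from 4.60 to 5.52, and the interaction of -0.31 had a 95% interval of -1.01 to 0.40, which includes 0 and reaches close to the estimate for Il1b.

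Tnfaip3 encodes A20, a ubiquitin-editing enzyme that shuts down signalling to NF-kB, and read 6.36, 6.57 and 6.48 in DMSO, 9.11, 9.12 and 9.23 in LPS, 6.64, 6.62 and 6.56 in Telmisartan, and 8.77, 8.78 and 8.58 in Telmisartan+LPS. The drug arrays lay below after LPS and, apart from an overlap with 1 DMSO array, above without it. The interaction was -0.58 (SE 0.11, adjusted p = 0.417), and leaving out each array moved it only between -0.63 and -0.52. Tnip3, which encodes a binding partner of A20, was 2.02-fold higher with LPS without the drug and 1.38-fold with it, an interaction of -0.56 (SE 0.20, adjusted p = 0.604), with Telmisartan+LPS arrays at 8.72, 8.24 and 8.17 overlapping the LPS arrays at 8.81, 8.67 and 8.79. Nfkbiz, which encodes the nuclear cofactor I-kappa-B zeta needed for Il6 transcription, had an interaction of -0.34 (SE 0.11, adjusted p = 0.604), and its LPS arrays of 9.27, 9.27 and 9.35 did not overlap the Telmisartan+LPS arrays of 8.99, 8.82 and 8.82. Pim1, a survival kinase, had -0.33 (SE 0.11, adjusted p = 0.604), though a second, dim feature gave 0.07. Of 25 measured NF-kB targets and early response genes, 20 were below 0 (80.0%, against 45.7% of all genes), 7 of them at an unadjusted p under 0.05 (28.0%, against 2.97%), with 0 in the other direction and a median of -0.16. The broader list of 24 feedback inhibitors was split, with 11 below 0 (45.8%, against 45.7% of all genes) and 13 above. Its median was 0.03 and ranged from -0.01 to 0.10 without each array. The most positive members were Socs2 at 0.35 and Zfp36l1 at 0.34, each with a second, dimmer feature at -0.04.

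The promoters of 4 damped genes are shown because their LPS effects with the drug ranged from 73.9% of the vehicle effect for Il6 to 88.1% for Cxcl10 while their sites differ. Each is the 250 bases before the RefSeq start site on the gene's own strand (GRCm38.p6), and capitals mark matches on either strand to 4 motifs: the 10-base NF-kB consensus, AP-1 (TGANTCA), the cyclic AMP response element (TGACGTCA) and the TATA box (TATAAA).
Il6, chr5:30012864-30013113, plus strand: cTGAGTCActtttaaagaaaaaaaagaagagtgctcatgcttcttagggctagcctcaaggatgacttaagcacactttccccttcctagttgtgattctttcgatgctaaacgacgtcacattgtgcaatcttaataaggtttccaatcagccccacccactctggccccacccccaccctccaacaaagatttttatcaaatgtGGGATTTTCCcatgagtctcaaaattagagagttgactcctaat
Cxcl10, chr5:92348890-92349139, minus strand: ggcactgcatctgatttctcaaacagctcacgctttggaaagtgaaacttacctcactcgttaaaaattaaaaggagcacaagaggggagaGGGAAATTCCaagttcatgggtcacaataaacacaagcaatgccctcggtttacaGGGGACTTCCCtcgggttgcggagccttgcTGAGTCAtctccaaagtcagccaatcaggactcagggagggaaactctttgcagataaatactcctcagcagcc
Tnfaip3, chr10:19015411-19015660, minus strand: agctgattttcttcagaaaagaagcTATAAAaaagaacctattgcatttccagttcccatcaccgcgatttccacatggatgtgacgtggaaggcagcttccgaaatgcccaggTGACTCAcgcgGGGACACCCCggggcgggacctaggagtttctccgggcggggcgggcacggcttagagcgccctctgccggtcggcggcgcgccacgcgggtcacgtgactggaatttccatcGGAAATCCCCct
Il1b, chr2:129371140-129371389, minus strand: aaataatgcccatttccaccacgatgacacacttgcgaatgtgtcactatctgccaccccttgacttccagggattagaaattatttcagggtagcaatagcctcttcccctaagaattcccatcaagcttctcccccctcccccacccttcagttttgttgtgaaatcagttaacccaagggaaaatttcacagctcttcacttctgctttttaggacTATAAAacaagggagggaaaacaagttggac

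In the Il6 promoter an NF-kB match starts 44 bases and an AP-1 match 249 bases before the start site. Cxcl10 holds NF-kB matches that start 159, 104 and 103 bases before it, the last pair overlapping, and an AP-1 match at 74 bases. The window shown for Tnfaip3, 1 of 2 of that gene, holds NF-kB matches at 125 and 12 bases, AP-1 at 136 and a TATA box at 225, whereas in the Il1b window the TATA box at 31 bases was the match found. Counting windows of 300 bases that run to 50 bases past the start site, 8.46% of 32851 RefSeq windows held an NF-kB match, 7.81% AP-1, 1.79% the cyclic AMP response element and 13.6% a TATA box. Of the tested genes 16990 had such a window, and 10.6% of them held an NF-kB match in at least 1. The share was 22.3% among the 94 LPS-risen genes with a window, 29.6% among the 27 of these with a negative interaction at an unadjusted p under 0.05 and 19.4% among the other 67. For AP-1 the shares were 8.42% of all genes, 29.6% of those 27 and 4.48% of the other 67, and for the TATA box 14.3%, 29.6% and 13.4%. For the cyclic AMP response element they were 2.65%, 0% and 4.48%. A match is a run of letters and says nothing of binding. The counts behind these shares are small: 8 genes of 27 each for NF-kB, AP-1 and the TATA box and 0 for the cyclic AMP response element. Among the other 67 the counts were 13, 3, 9 and 3 in the same order.

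Fas and Nlrp3, genes of cell death and of the inflammasome, had damped estimates in which the groups given LPS did not overlap. Fas, the death receptor for Fas ligand, read 4.45, 4.30 and 4.46 in DMSO, 5.47, 5.45 and 5.41 in LPS, 4.41, 4.47 and 4.44 in Telmisartan, and 4.95, 5.02 and 4.60 in Telmisartan+LPS. LPS arrays were 2.06-fold above DMSO without the drug and 1.33-fold above Telmisartan with it, 40.1% of the log2 effect, with an interaction of -0.62 (SE 0.14, adjusted p = 0.58). Nlrp3, the sensor of the inflammasome that activates caspase-1, read 6.90, 6.84 and 6.97 in DMSO, 8.21, 8.10 and 8.19 in LPS, 6.81, 6.91 and 6.62 in Telmisartan, and 7.66, 7.60 and 7.57 in Telmisartan+LPS. The 3 Telmisartan+LPS arrays agreed closely here, and the interaction of -0.43 (SE 0.11, adjusted p = 0.604) lay between -0.51 and -0.37 without each array. Of 13 inflammasome genes 9 were below 0 (69.2%, against 45.7% of all genes), 3 of them at an unadjusted p under 0.05 (23.1%, against 2.97%), including Il1b. Nek7, the kinase that licenses Nlrp3, had -0.25 (95% interval -0.50 to 0.01). The 13 measured death and TNF superfamily receptor genes were split, with 7 below 0 (53.8%, against 45.7% of all genes). Cflar, which encodes the caspase-8 inhibitor c-FLIP, had -0.26, and Tnfrsf12a, the receptor of the cytokine TWEAK, was opposite at 0.50 (SE 0.12, adjusted p = 0.604), with an LPS effect of -0.09 without the drug and 0.41 with it.

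Among inflammatory enzymes, Ptgs2, the inducible cyclooxygenase of prostaglandin synthesis, read 8.70, 8.65 and 8.98 in DMSO, 10.02, 9.98 and 10.05 in LPS, 8.64, 8.57 and 8.47 in Telmisartan, and 9.68, 9.34 and 9.07 in Telmisartan+LPS. The interaction was -0.44 (SE 0.18, adjusted p = 0.622), and -0.29 without Telmisartan+LPS replicate 3. Cybb, the catalytic subunit of the phagocyte NADPH oxidase, had -0.30 and Acod1, the itaconate-making enzyme, -0.28, with adjusted p of 0.618 and 0.616. Nos2, the inducible nitric oxide synthase, had an LPS effect of 0.42 without the drug and 0.29 with it, and its interaction was -0.13 (95% interval -0.43 to 0.16). Ptges, which acts after Ptgs2 in prostaglandin E synthesis, was on the other side at 0.24. Of 12 measured enzymes 7 were below 0 (58.3%, against 45.7% of all genes) and 4 above, with a median of -0.07 that was -0.04 without DMSO replicate 2.

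Immediate early transcription factors had no direction that held without each array. Of 24, 17 were below 0 (70.8%, against 45.7% of all genes) with a median of -0.06, but without DMSO replicate 1 it was 11 below and 13 above with a median of 0.02, and without DMSO replicate 3 the median was -0.10. An unadjusted p under 0.05 was reached by 2 (8.33%, against 2.97% of all genes on the negative side). Egr2, a zinc finger factor of myeloid cells, had -0.43 (SE 0.16, adjusted p = 0.604), with 5.62, 5.56 and 5.35 in LPS and 5.25, 5.07 and 4.95 in Telmisartan+LPS over baselines of 4.72, 4.96 and 4.72 and of 4.73, 5.00 and 4.70. Klf6 had -0.28 and Myc -0.35, the latter with a 95% interval of -0.73 to 0.03. The Telmisartan+LPS arrays of Myc, at 6.19, 6.09 and 6.48, overlapped the LPS arrays at 6.29, 6.48 and 6.61. Ier3 and Btg2, early genes that restrain apoptosis and proliferation, were nearly equal in both drug states, at 1.29 and 1.27 for Ier3 and 1.10 and 1.09 for Btg2, and are named after their values were seen.

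Features of 2 microRNA genes with a shared seed were damped as well. The feature of Mir221 read 5.30, 5.21 and 5.34 in DMSO, 7.37, 7.31 and 7.12 in LPS, 5.57, 5.27 and 5.12 in Telmisartan, and 6.79, 6.60 and 6.37 in Telmisartan+LPS. The LPS arrays all lay above the Telmisartan+LPS arrays, and the interaction was -0.72 (SE 0.17, adjusted p = 0.604). Mir222, its neighbour on chromosome X, named after its values were seen, had an LPS effect of 1.31 without the drug and 0.89 with it, an interaction of -0.42. The array does not tell a mature microRNA from its precursor, so these are levels of probes in the shared region. The mature RefSeq sequences share bases 2 to 8, the seed that pairs with targets, shown in capitals.
mmu-miR-221-3p, chrX:19146307-19146329, minus strand: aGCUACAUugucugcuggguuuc
mmu-miR-222-3p, chrX:19146901-19146923, minus strand: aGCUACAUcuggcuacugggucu
Over all 478 microRNA genes the median interaction was 0.01, with 221 below 0, and with centred arrays it was -0.02, with 256 below 0.

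Enlarged LPS effects were fewer and smaller among the risen genes. Unc5cl, a death-domain adaptor that can activate NF-kB, read 4.13, 4.15 and 4.07 in DMSO, 4.19, 4.25 and 4.21 in LPS, 4.17, 3.90 and 3.80 in Telmisartan, and 4.52, 4.45 and 4.58 in Telmisartan+LPS. Its interaction was 0.46 (SE 0.12, adjusted p = 0.604), and the Telmisartan+LPS arrays lay above those of the other 3 groups. Unc5cl was dim, at 4.58 or lower in every array. Id3, an inhibitor of basic helix-loop-helix factors, had an LPS effect of 0.28 without the drug and 0.61 with it. Its Telmisartan arrays of 7.56, 7.45 and 7.32 overlapped 1 of the DMSO arrays of 7.52, 7.91 and 7.87 and differed from them by -0.32 on average, while after LPS the drug groups had equal means. Dusp5, a phosphatase of ERK, had 0.25 (SE 0.10, adjusted p = 0.622): its drug baseline of 6.58, 6.78 and 6.61 lay below the DMSO arrays of 7.01, 7.11 and 7.08, and its Telmisartan+LPS arrays of 7.14, 7.15 and 7.20 lay below the LPS arrays of 7.35, 7.40 and 7.22. For Dusp5 the larger LPS effect therefore went with a lower, not a higher, level after LPS. Ralgds, an activator of Ral GTPases, had 0.25, Foxa1 0.26 and Fgd5 0.22, the last pair with intervals that included 0. With Unc5cl, Dusp5 and Ralgds the risen genes at an unadjusted p under 0.05 on the enlarged side are all named.

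The 29 LPS-lowered genes showed no prevailing direction. Their interaction was negative, which here means enlarged, in 16 (55.2%, against 45.7% of all genes) and positive in 13, with a median of -0.02 that ranged from -0.07 to 0.01 without each array. An unadjusted p under 0.05 was reached by 3 of each (10.3%, against 2.97% of all genes on the negative and 4.81% on the positive side). Zfp273, a zinc finger gene, was the most damped: it read 3.62, 3.34 and 3.61 in DMSO, 2.80, 2.42 and 2.68 in LPS, 2.86, 3.25 and 3.05 in Telmisartan, and 3.00, 2.59 and 2.83 in Telmisartan+LPS. Its levels were those of dim probes, the drug baseline lay below DMSO, and the interaction was 0.64 (SE 0.19, adjusted p = 0.604). On the enlarged side Fam185a had -0.32 (SE 0.10, adjusted p = 0.604), with 7.79, 7.85 and 7.87 in Telmisartan+LPS below all other arrays. Dhx57, a helicase gene, had -0.26, Unc45bos -0.24 and Fv1, a retrovirus restriction gene, -0.24, the last pair with intervals that included 0.

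**Figure D4:**
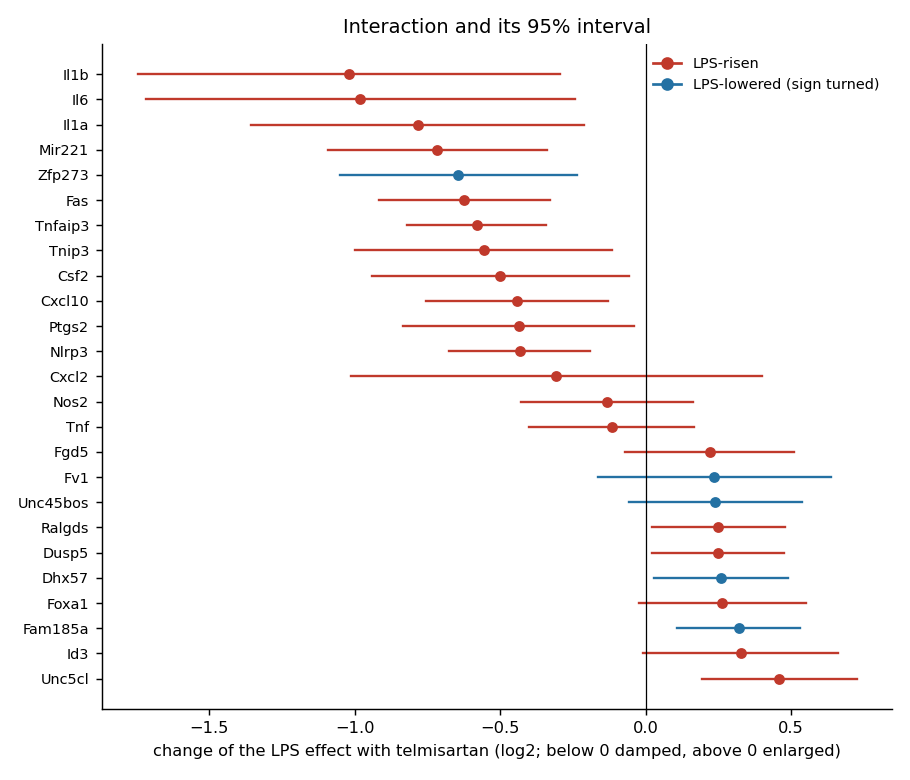
Interaction with its 95% interval from limma (horizontal axis, log2; sign turned for genes that fell, so that below 0 is damped and above 0 enlarged) for the 10 most damped and the 10 most enlarged genes among those called in the average LPS effect, with Ptgs2, Nlrp3, Cxcl2, Nos2 and Tnf. The largest damped estimate is -1.02 for Il1b, with an interval that reaches to -1.75, and the largest enlarged estimate is 0.46 for Unc5cl.

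Cib1, the gene with the smallest p-value, and several others differed with LPS in opposite directions in the 2 drug states and were not called on average. Cib1, a calcium-binding protein that binds integrins, read 6.28, 6.30 and 6.33 in DMSO, 5.97, 5.95 and 5.89 in LPS, 5.98, 6.02 and 6.00 in Telmisartan, and 6.18, 6.17 and 6.17 in Telmisartan+LPS. Each agent alone was lower than DMSO with no overlap, and the combination lay between, for an interaction of 0.54 (SE 0.08, adjusted p = 0.187) that moved only between 0.52 and 0.56 without each array. In Ifit3, an interferon-induced antiviral gene, each agent alone was again below DMSO with no overlap, with 6.34, 6.01 and 6.02 in DMSO, 5.63, 5.83 and 5.81 in LPS, 5.62, 5.75 and 5.63 in Telmisartan, and 6.45, 6.09 and 6.04 in Telmisartan+LPS. Its interaction was 0.89 (SE 0.16, adjusted p = 0.417). Sac3d1 had 0.66, Lamp5 0.59, Atg9b 0.49, Impdh1, a rate-limiting enzyme of guanine nucleotide synthesis, 0.41 and Mier2 0.40, all with lower means for each agent alone than for DMSO. The reverse order, with each agent alone above DMSO, was found for Cspg5 at -0.60 (SE 0.11, adjusted p = 0.417), Slc46a3 at -0.48, Celsr2 at -0.69 and Col6a6 at -0.45, and Cspg5, Celsr2 and Col6a6 were dim, at 4.63 or lower in every array.

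Interferon response genes outside the chemokines held both directions. Of 23 measured members 15 were above 0 and 8 below (34.8%, against 45.7% of all genes), with 2 of each at an unadjusted p under 0.05 (8.70%, against 4.81% and 2.97%). The median was 0.08, but 0.05 with centred arrays and 0.03 without Telmisartan replicate 1. Irf7, the interferon regulatory factor that amplifies type I interferon, had 0.46 (SE 0.14, adjusted p = 0.604), with 6.04, 6.01 and 5.78 in DMSO, 5.56, 5.81 and 5.54 in LPS, 5.85, 5.69 and 5.60 in Telmisartan and 5.85, 5.89 and 5.87 in Telmisartan+LPS. Ifit2, a relative of Ifit3, had 0.36 with an interval of -0.04 to 0.77. Rsad2, the antiviral enzyme viperin and 1 of 3 members called as risen on average, was damped at -0.29.

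Ribosomal protein genes lay mostly above 0. Of 17 ribosomal protein genes, 16 were above 0, where 53.5% of all genes were. In that direction 8 reached an unadjusted p under 0.05 (47.1%, against 4.81% of all genes). The median was 0.26 and lay between 0.20 and 0.34 without each array. Rplp0, a protein of the ribosomal stalk, read 9.96, 10.46 and 9.99 in DMSO, 10.12, 10.00 and 9.93 in LPS, 9.57, 9.87 and 9.76 in Telmisartan, and 10.23, 10.25 and 10.78 in Telmisartan+LPS, for an interaction of 0.81 (SE 0.22, adjusted p = 0.604). A second, dimmer feature of Rplp0 gave 0.04, and those of Rpl3 gave -0.20 and 0.43 beside 0.32, so features of 1 gene disagreed, and ribosomal protein genes have many processed copies that can share probes. Oxidative phosphorylation genes, which encode the respiratory chain, were above 0 in 20 of 24 cases, where 53.5% of all genes were, and 4 of these reached an unadjusted p under 0.05 (16.7%, against 4.81%), led by Atp5o at 0.39 and Uqcrc1 at 0.36. The median was 0.15, and 0.09 without Telmisartan+LPS replicate 2.

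The 80 small nucleolar RNA genes, which guide chemical modification of ribosomal RNA, were grouped after their values were seen. Their median interaction was 0.45, with 69 above 0, where 53.5% of all genes were. An unadjusted p under 0.05 was reached in that direction by 39 (48.8%, against 4.81% of all genes). The median LPS effect of the 80 was -0.24 without the drug and 0.18 with it. Snora75, a guide for pseudouridine, read 9.03, 9.12 and 9.03 in DMSO, 8.96, 8.62 and 8.83 in LPS, 8.72, 8.67 and 8.65 in Telmisartan, and 9.28, 9.10 and 9.36 in Telmisartan+LPS, with an interaction of 0.82. Snord15a, whose estimate was larger at 1.52, was less even, at 8.66, 9.21 and 9.85 in Telmisartan+LPS. The array medians of the list relative to DMSO were -0.24, -0.35 and -0.08 in LPS and -0.12, 0.09 and 0.21 in Telmisartan+LPS, so replicate 1 of that group lay with the Telmisartan arrays at -0.09, -0.17 and -0.11. The median interaction of the list was 0.57 without that array and 0.35 without replicate 3. The part of this spread between arrays in the result was not tested.

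p53 targets were below 0 in 12 of 15 cases (80.0%, against 45.7% of all genes), 4 of them at an unadjusted p under 0.05 (26.7%, against 2.97%), with a median of -0.11 that was -0.03 without Telmisartan+LPS replicate 3 and -0.07 without DMSO replicate 3. They include Fas, described above, with the BH3-only gene Pmaip1 at -0.49 (SE 0.14, adjusted p = 0.604), Trp53inp1 at -0.34 and Mdm2, the ubiquitin ligase of p53, at -0.26. Slc7a11, the cystine carrier, led both the stress response and the antioxidant lists at -0.63 (SE 0.20, adjusted p = 0.604; a second, dim feature gave -0.04), with 6.89, 6.27 and 6.83 in LPS and 6.20, 6.14 and 5.99 in Telmisartan+LPS over DMSO arrays of 5.91, 5.78 and 6.07. Srxn1, a second antioxidant gene, was opposite at 0.32. The medians of the remaining lists, for hypoxia and glycolysis, cholesterol efflux and synthesis, mitosis, DNA replication, the integrated stress response, Nrf2 antioxidant targets, renin-angiotensin genes and resting microglia, lay between -0.08 and 0.02, where the median of all genes was 0.02.

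**Figure D5:**
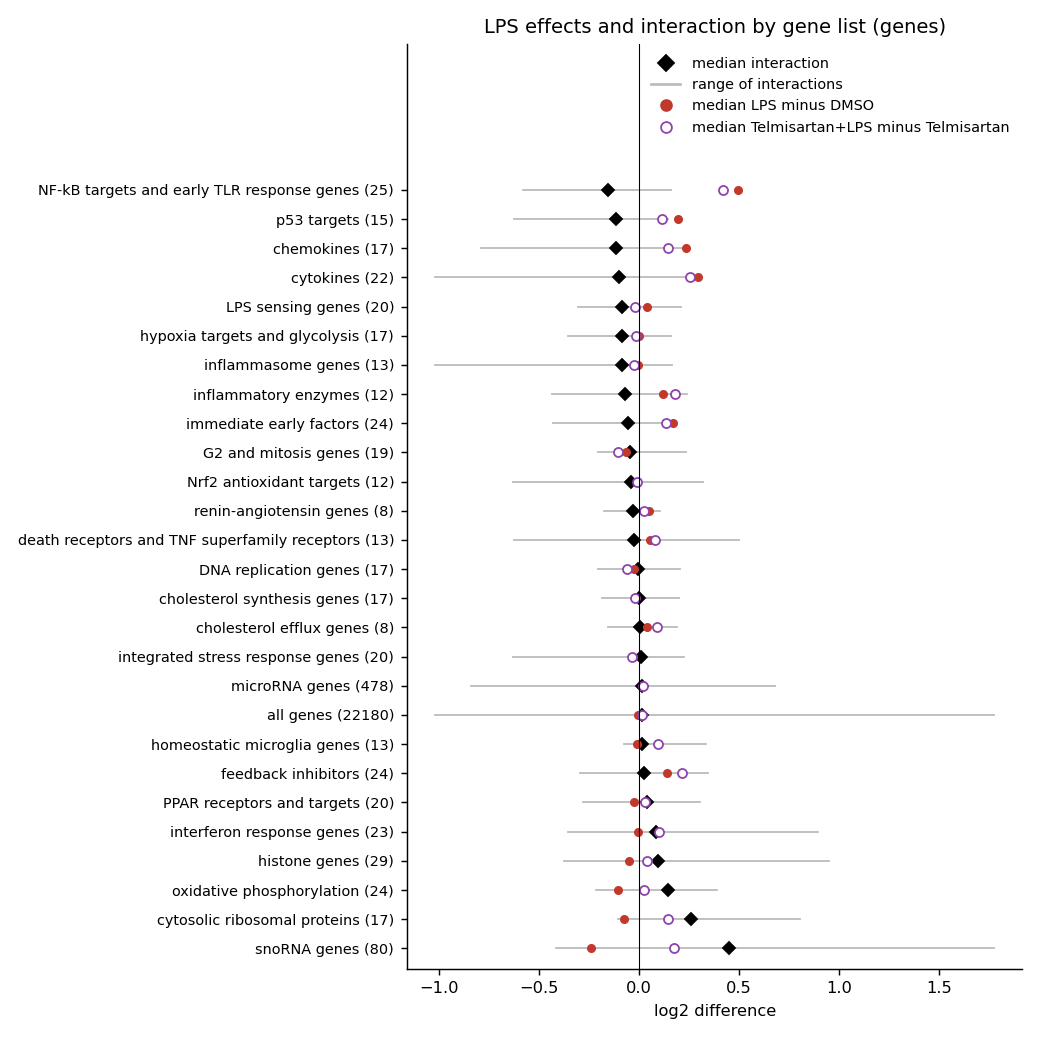
Median interaction (black diamonds), its range over genes (grey lines) and the median LPS effect without (red) and with (open purple) telmisartan on the log2 scale, for each list with its number of measured genes. NF-kB targets have the lowest median at -0.16 and small nucleolar RNA genes the highest at 0.45.

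No interaction was called for the receptors of either agent. Tlr4 had -0.30 (95% interval -0.72 to 0.11), its co-receptor Cd14 0.10 (-0.10 to 0.30) and Ly96, which encodes MD-2, -0.26 (-0.61 to 0.09), and of 20 LPS sensing genes 1, the adaptor gene Ticam1 at -0.30, reached an unadjusted p under 0.05 (5.00%, against 2.97% of all genes on the negative side). The intervals of Tlr4 and Ly96 include 0 and also a change of 1.5-fold. The drug's receptor Agtr1a read between 2.97 and 3.57 in the 12 arrays and Agtr1b between 3.49 and 3.85, both under the array medians, with interactions of -0.04 (-0.47 to 0.39) and -0.02 (-0.30 to 0.26). Agtr2 had -0.08 and Pparg, read between 3.06 and 3.38, 0.04 (-0.25 to 0.33). Of 20 PPAR receptors and targets 14 were above 0, where 53.5% of all genes were, with a median of 0.04. With centred arrays it was 11 above and 8 below, and without Telmisartan+LPS replicate 2 it was 11 and 9 with a median of 0.02. Of the 14, 2 reached an unadjusted p under 0.05 (10.0% of the list, against 4.81% of all genes), the lipid carrier gene Fabp5 at 0.31, whose other features gave 0.34, 0.12 and -0.08, and Rxra, the partner receptor, at 0.27.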

How the data were processed

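The deposited values are log2 RMA signals of Affymetrix second-generation mouse gene arrays, made by the authors in Expression Console (engine 1.4.1.46) with background correction, quantile normalization and median polish, per the file headers. A labelling protocol names an earlier design of the same array family. Of 41345 features, 23521 had 1 platform symbol, 1820 several and 16004 none, and 23328 of the 23521 were matched to the reference gene table by Entrez identifier. Of 22180 genes 1082 had more than 1 feature. Both deposited tables held 0 columns of other samples and differed by at most 0.005 on the log2 scale.

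All 12 arrays entered 1 limma model (limma 3.58.1, R 4.3.3, statmod 1.5.0) with 4 group means, 8 residual and 4.99 prior degrees of freedom. The threshold for a call was 0.05 after Benjamini-Hochberg adjustment over all 22180 genes. An array has no read depth, and the number of arrays limits precision: the median standard error was 0.13 for an interaction and 0.09 for an LPS effect. Members and lists were chosen with earlier results of these data known. Named genes are, by rule, up to 10 interactions per direction by p, the 10 most damped and 10 most enlarged among genes called in the average LPS effect, up to 4 members of each of 29 lists by size of interaction, and a fixed set of cytokines and receptors; gene models, small RNAs, receptor families and immunoglobulin segments were not named under the first parts. List members that had no own feature were left out. Promoter windows and microRNAs are from RefSeq (GRCm38.p6), matched by symbol. Alternatives were the 5-decimal table, moderation with a trend and robust variances, array weights, leaving out dim genes (highest group mean under 5), the mean over a gene's features, centring arrays on their median, all features, and leaving out each array.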

Additional observations from a re-analysis of the deposited data

How the results depend on the processing

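No label pairs arrays across groups. The titles run through the groups in 3 cycles, but nothing says that a cycle is a shared culture, day or batch, and a fit with the cycles as a block was not run. The count of called interactions, 0 with all genes, was 1 with trend and robust moderation (Snora75, 0 damped and 1 enlarged, limma adjusted p = 0.0121), 3 without dim genes (Cib1, Mir574 and Snora75, 1 damped and 2 enlarged) and between 0 and 3 when each array was left out. The 3 came without LPS replicate 3 and were small nucleolar RNA genes, damped by the sign of their average, with 0 enlarged. With the other alternatives it was 0. For these called genes the words damped and enlarged rest on the sign of an average LPS effect not called with all genes. In that fit the estimated LPS effect changed sign with the drug, so neither word describes its size. It was -0.26 without and 0.57 with the drug for Snora75, -0.37 and 0.17 for Cib1, and -0.18 and 0.46 for Mir574. For Snora15, Snora62 and Snord49b, called without LPS replicate 3, it was -0.95 and 0.48, -0.78 and 0.14, and -1.17 and 0.26. The average LPS effect called 148 genes, but 281 with trend and robust moderation, 369 without dim genes, 230 with centred arrays (99 rose and 131 fell, against 119 and 29) and between 97 and 158 without each array, 97 without DMSO replicate 1. The cause was not tested. Of 147 genes named by the rule, 140 kept their sign under every alternative with 1 value per gene, which leaves out the fit of all features. In that fit Csf2, Fabp5, Hif1a, Pdk1, Pim1, Rpl3, Rpl7, Socs2 and Zfp36l1 had features of both signs. The features of Rplp0 and of Slc7a11 had the same sign. Cib1, not called with all genes, was called without dim genes (0.54, adjusted p = 0.024). Cd3e turned to -0.01 with centred arrays, and without each array Cd3e ranged from -0.0783 to 0.16, Sox10 from -0.0283 to 0.20, Col1a1 from -0.0117 to 0.29, Cd4 from -0.23 to 0.0233, Agtr1a from -0.17 to 0.10, Agtr1b from -0.12 to 0.0467 and Pparg from -0.0333 to 0.13, all dim genes. Among LPS-risen genes, the number below 0 was 95 of 119 with centred arrays, whose median over all genes was -0.01. In that setting 11722 of all 22180 genes were below 0. Without dim genes it was 82 of 102 LPS-risen genes, where 4863 of all 9933 genes kept were below 0.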
